A study of Mus musculus with 17 samples.

Results

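Lungs of mice with an overactive Nlrp3 allele and 1 intact copy of the IL-18 receptor gene Il18r1 were compared with lungs of an Il18r1 control group. The comparison used 7 of the 17 samples of the series, 3 of the genotype LysMcre;Nlrp3A350V;Il181r+/- as the labels spell it, called the het mutant here, and 4 of the group named Il18r1 control. The members are the columns that the series' design text assigns to these groups. All 24327 named genes of the deposited table were read, and 13724 that reached 1 FPKM (fragments per kilobase of transcript, scaled for library depth) in at least 3 of the table's 11 libraries were tested. The other 4 libraries of that table, of the mutant with no intact Il18r1 copy, entered the fit to estimate the spread and are called the null mutant. LysM-cre drives recombination in myeloid cells, among them macrophages, monocytes and neutrophils. Which cells of the lung carried the recombined allele was not measured, and all of them were read in the same RNA. Age, sex and litter are not labelled, the genotype of the control group is not spelled out, and nothing says whether the samples of a group are separate animals. The p-values then reflect the spread among the libraries at hand, which may be technical.

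NLRP3 is a cytoplasmic sensor that, once active, gathers the adaptor ASC and the protease caspase-1 into an inflammasome. Caspase-1 cuts the precursors of IL-1β and IL-18 into their secreted forms and opens gasdermin D pores in the membrane. The A350V substitution leaves NLRP3 active without its usual trigger. IL-18 binds a receptor made of the chains encoded by Il18r1 and Il18rap, is held back by the soluble IL-18 binding protein, and is best known for driving interferon-γ production in lymphocytes. Building of the alveoli depends on contractile myofibroblasts, an elastic fibre scaffold, capillaries and dividing progenitors, the cells behind the gas exchange surface that the series' title names.

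The 7 libraries differed by more than genotype. Xist, the RNA that silences an X chromosome in females, stood at 0.0419, 0.0206, 0.0225 and 0.0322 FPKM in control libraries 1 to 4 and at 45.8, 44.9 and 42.9 FPKM in het libraries 1 to 3. Eif2s3y, on the Y chromosome, stood at 23.4, 21.3, 22.7 and 19.2 FPKM in the controls and was listed at 0 in every het library. All 4 controls carried Y-linked transcripts and all 3 het mutants carried Xist, so genotype and sex cannot be told apart within these 7 libraries. In the null mutant, libraries 2 and 4 carried Xist and libraries 1 and 3 carried Y-linked transcripts, so a fit with a sex term was possible over all 11 libraries, and its counts are given beside those of each list of genes. That term rests on the null mutant alone. Relative depth, estimated from the steps between low values, was 0.919 to 1.12 times the first control in the other controls, though the estimate for control 3 was less sure, and 0.962, 0.940 and 0.750 in het libraries 1 to 3. Total FPKM was 488783 ± 7165.8 (SD, n = 4) in the controls and 547338 ± 11459.8 (SD, n = 3) in the het mutants. The first principal component, with 83.4% of the variance, separated the het mutants from the controls. Het library 1 lay nearest the controls on it, at 34.2, with libraries 2 and 3 at 47.2 and 46.9. On the second component, with 4.74% of the variance, het library 3 stood apart at 17.4, with libraries 1 and 2 at -6.16 and -12.2.

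In the het mutant 3752 of 13724 tested genes rose (27.3%) and 3964 fell (28.9%) with limma at a Benjamini-Hochberg adjusted p under 0.05, so 7716 genes passed (56.2%). Of these, 741 rose by at least 1 on the log2 scale (5.4%) and 326 fell by at least that much (2.38%). The groups did not overlap in 7748 genes (56.5%), 3755 of them higher (27.4%) and 3993 lower (29.1%) in the het mutants. The 55 lists of genes below, chosen by cell type and pathway, held 1016 members, of which 918 were tested, 90 did not reach the expression limit and 8 were not in the table. The lists were chosen with earlier results of these data known, so their counts describe these data and are not a test. Their counts are read against the shares above and against the median log2 fold change of all tested genes, which was -0.017. A gene that reached the expression limit only through the group where it is high had little room not to differ. It is counted here as reaching the limit through a group only where fewer than 3 libraries outside that group were at 1 FPKM or more. Among all tested genes 287 reached it through the het libraries only, of which 205 rose, and 137 through the controls only, of which 47 fell. Among list members, each counted once, these were 25 and 11 of 820. In 19 of the 55 lists at least 1 member reached the limit through the het libraries only. The split depended on scaling. With every library brought to the same total FPKM, 2484 genes rose (18.1%) and 6482 fell (47.2%), and the median over all genes shifted by -0.147. With the sex term 2436 rose (17.7%) and 2447 fell (17.8%), and of the genes that passed without it 2377 and 2384 passed again in the same direction and 2 in the opposite one.

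**Figure D1:**
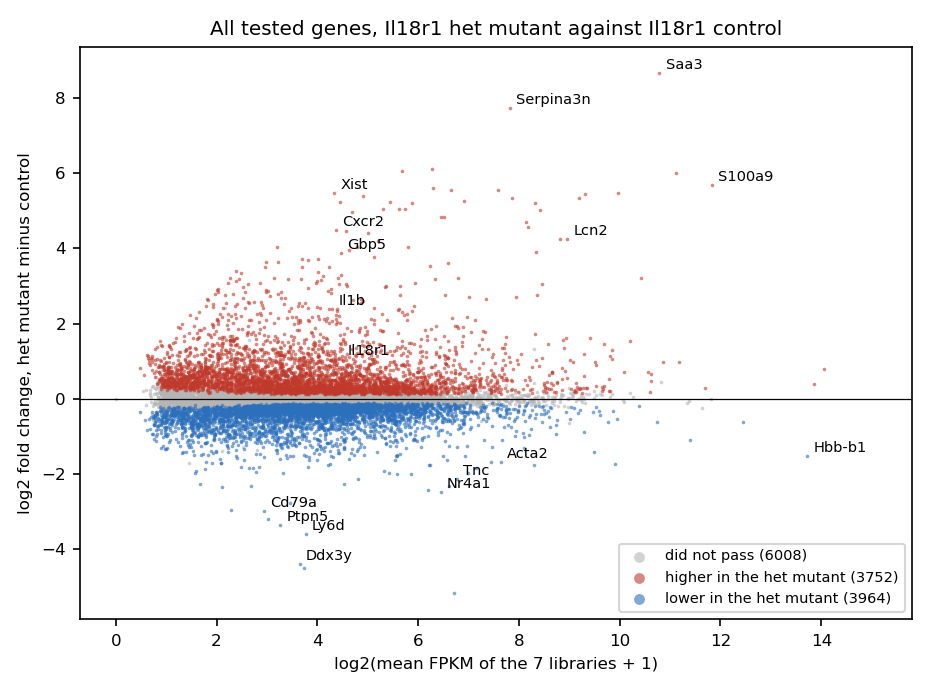
Log2 fold change of het mutant over control, on log2(FPKM + 1), against log2(mean FPKM of the 7 libraries + 1) for the tested genes; each point is a gene, red where it rose, blue where it fell and grey where it did not pass. Saa3 is the highest point at 8.67 and Ly6d lies at -3.602, and the lowest points are Y-linked genes such as Ddx3y.

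The largest rises were acute phase, protease inhibitor and neutrophil genes. Saa3, a serum amyloid A made locally by macrophages and epithelium, stood at 6.46, 6.94, 10.5 and 12.9 FPKM in the controls and at 4907, 4496 and 2919.8 FPKM in the het mutants (log2 fold change 8.67, SE 0.28, adjusted p = 1.7e-09). The groups lay far apart, with het library 3 the lowest of its group. Serpina3n, an inhibitor of serine proteases, went from 1.46 ± 0.509 (SD, n = 4) to 524 ± 95.6 FPKM (SD, n = 3) (log2 fold change 7.74, SE 0.31, adjusted p = 7.5e-09). S100a8, which with S100a9 forms the neutrophil protein calprotectin, stood at 90.3, 80.4, 71.4 and 61.1 FPKM in the control libraries and 4644, 6869.7 and 3743 FPKM in the het mutants (log2 fold change 6.02, SE 0.19, adjusted p = 1.6e-09). Here library 2 was the highest of the het mutants, and no control came near them. Asprv1, a skin protease also found in neutrophils, rose by 6.12 (SE 0.17) on the log2 scale, and the secreted lectin Chil3 by 5.55 (SE 0.41). The rest of the 15 largest rises were Serpina3f, S100a9, the collagenase Mmp8, Serpina3g, BC100530, the cystatin Stfa2, Slfn4, Ifitm6, the granule protein Ngp and Retnlg, with log2 fold changes from 5.26 for Retnlg to 6.06 for Serpina3f. The Saa, Serpina3 and Stfa genes, BC100530 among the last, come in near-identical copies, and how shared reads were counted is not given, so the split among copies is uncertain.

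The largest falls were of another kind, with sex-linked genes left out. Of those, Eif2s3y (log2 fold change -4.498, SE 1.00) and Ddx3y (log2 fold change -4.41, SE 0.98) fell further than any gene named next. Ly6d, a surface protein known from B cell progenitors and keratinocytes, stood at 22.4, 19.3, 18.9 and 24.9 FPKM in the control libraries and 2.05, 0.6397 and 0.228 FPKM in the het mutants (log2 fold change -3.602, SE 0.26, adjusted p = 5.4e-07). Tnc encodes tenascin C, a matrix protein of growing alveolar septa, and stood at 161, 159, 161 and 163 FPKM in the control libraries and 44.5, 36.3 and 28.8 FPKM in the het mutants (log2 fold change -2.13, SE 0.11, adjusted p = 2.9e-08). Its controls were nearly equal, and library 3 was the lowest het mutant. Ptpn5, a tyrosine phosphatase known from neurons, fell (log2 fold change -3.37, SE 0.10). So did Etv4, a transcription factor induced by FGF signalling (log2 fold change -2.31, SE 0.11), the secreted protease Htra1 (log2 fold change -2.32, SE 0.14) and the growth factor Wnt11 (log2 fold change -2.12, SE 0.13). The rest of the 15 largest falls outside sex-linked genes were Crabp1, Cd79a, Slitrk6, Nr4a1, Prss35, Ms4a1, Aard, Cd248 and Egfem1, from -2.003 for Egfem1 to -3.19 for Crabp1. Of these, Cd79a and Ms4a1 are B cell genes, and Cd248 is known from stromal cells and pericytes.

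**Figure D2:**
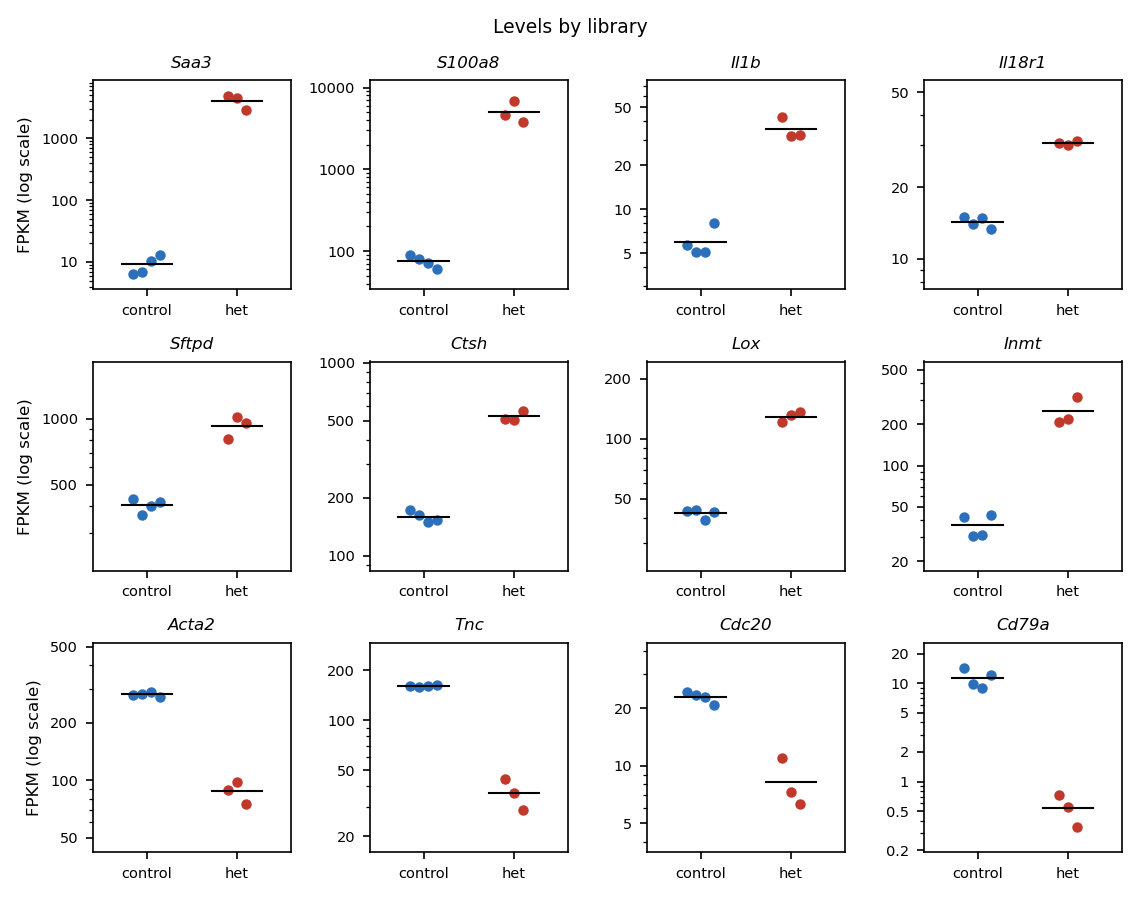
FPKM on a log scale of 12 genes in the 4 control and 3 het libraries, each point a library and each line the group mean. In every panel the groups do not overlap: Saa3, S100a8, Il1b, Il18r1, Sftpd, Ctsh, Lox and Inmt lie higher in the het mutants and Acta2, Tnc, Cdc20 and Cd79a lower.

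The targeted genes were read in every library. Il18r1 (GRCm38, chromosome 1, 40465552 to 40500854) measured 14.98, 13.96, 14.8 and 13.4 FPKM in control libraries 1 to 4, 30.7, 29.9 and 31.2 FPKM in the het mutants and 6.98, 9.005, 8.59 and 8.46 FPKM in the null mutants. No het mutant was below a control and no null mutant above one (het over control: log2 fold change 1.05, SE 0.073, adjusted p = 3.8e-07). The part of Il18r1 that is deleted is not given in the sources used here. Nlrp3 (GRCm38, chromosome 11, 59541568 to 59566956) measured 0.945, 2.004, 0.709 and 2.303 FPKM in the control libraries and 3.06, 4.08 and 3.63 FPKM in the het mutants (log2 fold change 0.93, SE 0.20, adjusted p = 0.0019). A missense transcript is counted like the normal one, so this level does not check the label. Il18 went from 5.26 ± 0.575 (SD, n = 4) to 11.3 ± 1.42 FPKM (SD, n = 3) (log2 fold change 0.97, SE 0.15, adjusted p = 2.3e-04). Lyz2, the lysozyme gene whose promoter drives LysM-cre, stood at 909.9, 1691, 1892 and 1886 FPKM in the control libraries and 2266, 2156 and 1896 FPKM in the het mutants. Control 1 was far below the other controls, every het mutant was above every control, and the gene failed the test (log2 fold change 0.46, SE 0.21, adjusted p = 0.08).

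The inflammasome genes rose together: of 12 tested, 11 rose and none fell, with a median of 0.88 on the log2 scale. With the sex term 10 rose and 0 fell. Of the 12, 1 reached the expression limit through the het libraries only, and 10 of the other 11 rose. Casp4, the protease that senses bacterial lipopolysaccharide inside the cell, went from 1.72 ± 0.2005 (SD, n = 4) to 12.4 ± 3.302 FPKM (SD, n = 3) (log2 fold change 2.28, SE 0.17, adjusted p = 6.0e-07). Casp1, caspase-1 itself, went from 1.34 ± 0.218 (SD, n = 4) to 4.64 ± 0.452 FPKM (SD, n = 3) (log2 fold change 1.27, SE 0.11, adjusted p = 1.7e-06). Pycard, the gene of the adaptor ASC, rose by 0.82 (SE 0.067), the pore gene Gsdmd by 0.69 (SE 0.092), and Dfna5, the gene of gasdermin E, by 1.33 (SE 0.13). Nek7, which binds NLRP3, did not pass, at 31.1 and 32.8 FPKM. Nlrc4, Nlrp1a and Nlrp1b did not reach the expression limit.

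In the IL-1 family, 12 of 14 tested genes rose and none fell (median 0.97; with the sex term 9 rose and 0 fell). Il1b, the other cytokine matured by caspase-1, stood at 5.67, 5.11, 5.08 and 8.09 FPKM in the control libraries and 42.7, 31.6 and 32.3 FPKM in the het mutants (log2 fold change 2.39, SE 0.29, adjusted p = 2.9e-05). The lowest het mutant was well above the highest control, library 4. Il1r2, a decoy receptor that captures IL-1, went from 0.195 ± 0.152 (SD, n = 4) to 48.3 ± 26.98 FPKM (SD, n = 3) (log2 fold change 5.23, SE 0.29, adjusted p = 6.7e-08). Il1rn, the antagonist of the IL-1 receptor, rose by 0.97 (SE 0.19), and Il1f9, the gene of IL-36γ, by 3.35 (SE 0.14). On the IL-18 side, the second receptor chain Il18rap went from 1.04 ± 0.161 (SD, n = 4) to 7.09 ± 2.18 FPKM (SD, n = 3) (log2 fold change 1.96, SE 0.16, adjusted p = 1.3e-06). Il18bp, the soluble inhibitor of IL-18, stood at 2.504, 3.05, 2.63 and 2.56 FPKM in the control libraries and 12.9, 13.3 and 42.4 FPKM in the het mutants (log2 fold change 2.48, SE 0.31, adjusted p = 3.5e-05). Het library 3 was far above libraries 1 and 2, which were close to each other and above all controls. Il33, an alarmin of epithelium and fibroblasts, overlapped between the groups, and its call (log2 fold change 0.54, SE 0.21) was lost without any 1 library other than control 4, with an adjusted p of up to 0.15. Sigirr and Il1rl1 did not pass.

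Tnf was low in all 7 libraries, at 0.879, 0.8001, 0.697 and 1.07 FPKM in the control libraries and 2.301, 1.57 and 1.02 FPKM in the het mutants. Het library 3 lay within the controls' range (log2 fold change 0.47, SE 0.18, adjusted p = 0.037). The call was lost without control 1, 2 or 3 or het library 1 or 2. The log2 fold change was 0.296 and the adjusted p 0.17 without het library 1, the highest, and the adjusted p was 0.061 to 0.082 without the others. In the list of TNF family genes and targets of NF-κB, the transcription factor that TNF activates, 18 of 22 rose and none fell (median 0.89; with the sex term 16 rose and 0 fell, at equal total FPKM 16 rose and 2 fell, and without het library 1 there was 1 fall). Nfkbia, the inhibitor that NF-κB induces against itself, went from 56.9 ± 5.27 (SD, n = 4) to 246 ± 43.05 FPKM (SD, n = 3) (log2 fold change 2.08, SE 0.14, adjusted p = 2.4e-07). Tnfaip3, the deubiquitinase A20, rose by 2.05 (SE 0.14), the macrophage growth factor Csf1 by 1.73 (SE 0.13) and the endothelial adhesion gene Icam1 by 1.19 (SE 0.10). Both TNF receptors rose, Tnfrsf1a by 0.45 (SE 0.044) and Tnfrsf1b by 0.63 (SE 0.13). The subunit genes Nfkb1 and Rel did not pass. Of the 22 tested, 1 reached the expression limit through the het libraries only, and 17 of the other 21 rose.

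Among genes of the IL-6, G-CSF and STAT3 response, 14 of 15 rose and none fell (median 1.45; with the sex term 14 rose and 0 fell). Lrg1, a secreted glycoprotein induced by STAT3, went from 6.102 ± 1.78 (SD, n = 4) to 202 ± 48.8 FPKM (SD, n = 3) (log2 fold change 4.84, SE 0.30, adjusted p = 1.7e-07), and Socs3, the feedback inhibitor of this pathway, rose by 2.25 (SE 0.16). Cebpd, a transcription factor of the acute phase, rose by 2.77 (SE 0.25), and the oncostatin M receptor Osmr by 1.62 (SE 0.11). The ligand genes Il6, Il11 and Csf3 stayed under the expression limit, as did Il17a. In the IL-17 response list 11 of 12 rose (median 2.12; with the sex term 8), among them Lcn2, which withholds iron from bacteria, at 4.25 (SE 0.23). Of these 12, 2 reached the expression limit through the het libraries only, and 9 of the other 10 rose. Several of its members, such as S100a8, S100a9, Lcn2, Cxcl1 and Cxcl2, are counted again in the neutrophil or chemokine lists. The chemokines Cxcl1 and Cxcl2, which call neutrophils, rose by 3.09 (SE 0.51) and 2.796 (SE 0.47). Of the chemokine and receptor list 13 of 14 rose (median 2.204; with the sex term 12 rose and 0 fell). Here too 2 reached the expression limit through the het libraries only, and 11 of the other 12 rose. Cxcl15, the lung epithelial chemokine, was abundant, with 507 to 548 FPKM in the control libraries and 891 to 1235 FPKM in the het mutants (log2 fold change 0.91, SE 0.11, adjusted p = 2.5e-05). Cxcr4, the receptor that holds neutrophils and progenitors in the marrow, was the 1 gene of it that fell (log2 fold change -0.77, SE 0.15, adjusted p = 0.001).

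All 21 tested markers of mature neutrophils rose, with a median of 4.26 (with the sex term 21). Their summed level was 436, 381, 353 and 329 FPKM in the control libraries and 14888, 21963 and 11691 FPKM in the het mutants, library 2 being the highest and library 3 the lowest of these. Cxcr2, the chemokine receptor of circulating neutrophils, went from 0.933 ± 0.127 (SD, n = 4) to 44.4 ± 16.97 FPKM (SD, n = 3) (log2 fold change 4.49, SE 0.22, adjusted p = 3.2e-08), and Slpi, an inhibitor of neutrophil elastase, rose by 4.03 (SE 0.11). In a list of granule and precursor genes 9 of 9 tested rose (median 3.09; with the sex term 9 rose and 0 fell), with the secondary and late granule genes Ngp, Ltf and Camp at 5.33 (SE 0.26), 4.85 (SE 0.25) and 3.09 (SE 0.29) and the precursor regulator Cebpe at 2.97 (SE 0.11). Of the primary granule genes, made by earlier precursors, Prtn3 rose from 0.667 to 6.19 FPKM and Ctsg from 0.109 to 1.34 FPKM in the group means, and Mpo and Elane did not reach the expression limit, nor did the precursor genes Gfi1 and Ms4a3. Ctsg and Fcnb reached that limit through the het libraries only, and the other 7 members had a median of 4.25. In bulk RNA more cells of a type and more RNA per cell cannot be told apart, here and for every marker list below.

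Acute phase and antiprotease genes rose in 19 of 20 tested (median 4.31; with the sex term 19). Of these 20, 5 reached the expression limit through the het libraries only, and all of the other 15 rose. Hp, haptoglobin, which binds free haemoglobin, went from 302 ± 23.7 (SD, n = 4) to 2817 ± 443 FPKM (SD, n = 3) (log2 fold change 3.21, SE 0.12, adjusted p = 5.4e-09), Cp, ceruloplasmin, rose by 1.85 (SE 0.082) and Lbp, the carrier of lipopolysaccharide, by 1.68 (SE 0.11). Hpx did not pass, and the fibrinogen genes Fga, Fgb and Fgg were under the expression limit. All 17 tested complement genes rose (median 1.59; with the sex term 17). Cfb, the protease of the alternative pathway, went from 2.61 ± 0.644 (SD, n = 4) to 58.3 ± 10.6 FPKM (SD, n = 3) (log2 fold change 4.04, SE 0.18, adjusted p = 1.4e-08), C3, on which all pathways meet, rose by 2.17 (SE 0.15), and C1ra of the classical pathway by 2.38 (SE 0.058). Saa1 stood at 0 to 0.187 FPKM in the control libraries and 2.07 to 5.89 FPKM in the het mutants (log2 fold change 1.99, SE 0.29). C/EBP factors are known to drive Saa genes, so the promoters of Saa3 and Saa1 are shown for the letters TTGCNNAA, a C/EBP core searched on both strands. The capitals mark the match, 99 bases before the start in Saa3 and 182 in Saa1, in the 250 bases before each gene's start (RefSeq, GRCm38.p6; chr7:46715677-46715926, minus strand and chr7:46742981-46743230, minus strand).
Saa3: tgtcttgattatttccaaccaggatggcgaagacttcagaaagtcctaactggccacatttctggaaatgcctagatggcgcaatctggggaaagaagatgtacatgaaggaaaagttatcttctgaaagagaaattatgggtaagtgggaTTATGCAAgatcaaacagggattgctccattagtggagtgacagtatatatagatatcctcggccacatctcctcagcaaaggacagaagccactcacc
Saa1: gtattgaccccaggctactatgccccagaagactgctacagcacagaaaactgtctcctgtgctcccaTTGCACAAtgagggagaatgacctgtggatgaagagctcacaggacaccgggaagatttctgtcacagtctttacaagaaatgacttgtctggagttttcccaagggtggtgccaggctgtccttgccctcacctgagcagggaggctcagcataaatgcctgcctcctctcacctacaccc
Of 15 acute phase genes with a promoter in the table, 6 held these letters, against 7.567% of the promoters of tested genes and 9.554% of all 27025. A κB motif, GGGA and TTTCC 1 base apart on either strand, was in 0 of the 15 and in 3 of 18 promoters of the TNF and NF-κB list, against 0.3361% of tested genes. Both promoters were chosen for holding a match, which describes the letters and not binding.

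Interferon-γ response genes rose in 22 of 23 tested, with a median of 2.24 (with the sex term 21, median 2.57). Their summed level was 249, 290.2, 250.02 and 264 FPKM in the control libraries and 1005, 1145 and 3135 FPKM in het libraries 1 to 3, so library 3 stood well above the other two, while libraries 1 and 2 already lay above all controls. Without library 3, 21 rose and 1 fell in the list, with a median of 1.76. Of the 23 tested, 1 reached the expression limit through the het libraries only, and 21 of the other 22 rose. Ifng itself did not reach the expression limit. Irf1, the transcription factor at the head of this response, stood at 32.4, 37.3, 32.4 and 36.2 FPKM in the control libraries and 116, 104 and 206 FPKM in the het mutants (log2 fold change 1.94, SE 0.18, adjusted p = 4.0e-06). Gbp5, a GTPase that attacks the membranes of intracellular microbes and promotes NLRP3 assembly, stood at 0.874, 1.66, 1.53 and 1.38 FPKM in the control libraries and 15.7, 21.8 and 105 FPKM in the het mutants (log2 fold change 3.87, SE 0.47, adjusted p = 2.9e-05). No control reached the lowest het mutant of either gene, and library 3 was the highest in both. The immunity-related GTPases Igtp and Irgm2 rose by 3.54 (SE 0.42) and 2.99 (SE 0.32). Cxcl10, a chemokine for T cells, rose by 2.900 (SE 0.37), the checkpoint ligand Cd274 by 2.55 (SE 0.41), the peptide transporter Tap1 by 2.295 (SE 0.33) and the inducible nitric oxide synthase Nos2 by 1.05 (SE 0.13). Socs1, the feedback inhibitor, did not pass, at 8.84 and 11.2 FPKM. The Gbp genes and the genes around Igtp come in similar copies, so values of single members are uncertain.

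**Figure D3:**
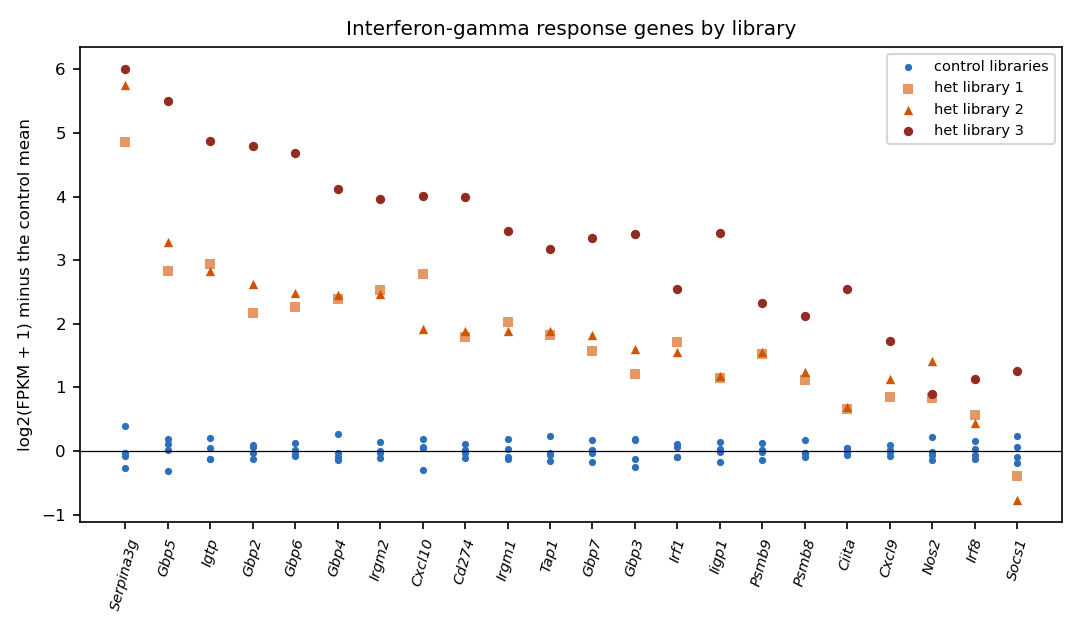
For 22 of the 23 tested interferon-γ response genes, log2(FPKM + 1) of every control and het library minus the control mean; small blue points are controls and squares, triangles and dark circles are het libraries 1, 2 and 3. Library 3 is the highest for all genes shown but Nos2, and libraries 1 and 2 lie above all controls for all but Socs1, where they lie below.

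Type I interferon response genes, which overlap in function with the former list, were read next: 11 of 18 rose and 1 fell (median 0.90; with the sex term 10 rose and 0 fell). Without het library 3, 8 rose and 1 fell, with a median of 0.45. Of the 18 tested, 1 reached the expression limit through the het libraries only, and 10 of the other 17 rose. Oas2, an antiviral synthetase, stood at 0.538, 0.585, 0.491 and 0.4905 FPKM in the control libraries and 3.49, 3.96 and 6.09 FPKM in the het mutants (log2 fold change 1.82, SE 0.19, adjusted p = 9.0e-06). Rsad2, viperin, was the gene that fell (log2 fold change -1.07, SE 0.30, adjusted p = 0.009). Ifit1, Ifit3, Isg15 and Usp18 did not pass.

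Promoters of 4 interferon-γ response genes that rose are shown because each holds both motifs that were searched, the core of the interferon response element, a pair of GAAA 2 bases apart, and the interferon-γ activated site TTCNNNGAA, on either strand. The capitals mark the matches in the 250 bases before each start (RefSeq, GRCm38.p6). They lie at chr3:142496684-142496933, plus strand for Gbp5, chr3:142530086-142530335, plus strand for Gbp7, chr11:58199306-58199555, plus strand for Igtp and chr11:58214727-58214976, plus strand for Irgm2.
Gbp5: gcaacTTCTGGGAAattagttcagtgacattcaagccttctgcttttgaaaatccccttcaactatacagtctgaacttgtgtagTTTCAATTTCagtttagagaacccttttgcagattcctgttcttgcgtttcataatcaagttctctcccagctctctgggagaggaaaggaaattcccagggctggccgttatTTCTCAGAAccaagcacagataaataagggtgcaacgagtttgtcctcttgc
Gbp7: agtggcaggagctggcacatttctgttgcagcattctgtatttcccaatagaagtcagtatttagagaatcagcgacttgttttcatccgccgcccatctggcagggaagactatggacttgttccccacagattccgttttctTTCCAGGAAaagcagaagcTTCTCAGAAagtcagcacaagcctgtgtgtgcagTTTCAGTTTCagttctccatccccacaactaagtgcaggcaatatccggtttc
Igtp: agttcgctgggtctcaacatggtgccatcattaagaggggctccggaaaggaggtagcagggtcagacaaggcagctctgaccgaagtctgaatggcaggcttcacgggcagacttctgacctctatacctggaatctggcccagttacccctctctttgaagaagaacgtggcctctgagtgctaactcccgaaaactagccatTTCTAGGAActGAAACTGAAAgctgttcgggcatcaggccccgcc
Irgm2: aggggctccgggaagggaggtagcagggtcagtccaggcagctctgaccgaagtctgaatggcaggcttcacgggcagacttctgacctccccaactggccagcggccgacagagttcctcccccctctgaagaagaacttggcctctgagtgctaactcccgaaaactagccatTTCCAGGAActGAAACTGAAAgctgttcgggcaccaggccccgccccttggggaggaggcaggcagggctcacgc
In Igtp and Irgm2 the pair begins 45 and 75 bases before the start with the activated site, and the response element core follows at 34 and 64 bases. Of 17 promoters of the list, 9 held the response element core, against 2.651% of the promoters of tested genes, and 8 the activated site, against 6.079%. Both were in 4 of the 17 and in 0.4033% of tested genes. The Igtp and Irgm2 promoters share long stretches of letters and the Gbp genes come in similar copies, so these counts may not be of separate cases. In the type I list 8 of 15 held the core and 3 of 15 the activated site. Igtp and Irgm2 were given above, and Gbp7 rose too (log2 fold change 2.24, SE 0.33). The 4 genes were chosen for their matches, which describe letters only.

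The marker lists of other blood cells moved in different directions. Interstitial macrophage markers rose in 18 of 20 and fell in 1 (median 1.17; with the sex term 18 rose and 0 fell), with C1qc at 1.94 (SE 0.094), the lipid carrier Apoe at 1.61 (SE 0.12) and the lipopolysaccharide co-receptor Cd14 at 2.25 (SE 0.28). Of these 20, 1 reached the expression limit through the het libraries only, and 17 of the other 19 rose. Alveolar macrophage markers rose in 14 of 19 and fell in 1 (median 0.61; with the sex term 13 rose and 1 fell), with the scavenger receptor Marco going from 1.85 ± 0.3303 (SD, n = 4) to 12.4 ± 0.721 FPKM (SD, n = 3) (log2 fold change 2.24, SE 0.098, adjusted p = 1.4e-08), while Itgax, Cidec and Ctsk did not pass. The 1 that fell was Fabp1, a fatty acid binding protein also known from liver, from 3.08 to 0.429 FPKM in the group means (log2 fold change -1.497, SE 0.25, adjusted p = 3.3e-04). Monocyte markers split, with 7 of 14 higher and 3 lower (median 0.22, and 0.12 without het library 1 and 0.41 without library 3; with the sex term 6 rose and 2 fell). Ly6c2 and F13a1, of classical monocytes, rose by 2.37 (SE 0.16) and 1.99 (SE 0.085), and Nr4a1, the regulator of patrolling monocytes that is also an immediate early gene, fell (log2 fold change -2.49, SE 0.41, adjusted p = 2.7e-04), as did Cd300e at -0.74 (SE 0.18). Of the other members, Ccr2, with group means of 7.24 and 8.55 FPKM, did not pass, nor did Treml4, Ace and Spn. Vcan fell, and the rest rose. Platelet and megakaryocyte genes rose in 12 of 13 (median 1.15; with the sex term 8). Pf4, platelet factor 4, stood at 30.8, 26.3, 27.3 and 31.8 FPKM in the control libraries and 98.6, 66.6 and 72.1 FPKM in the het mutants, library 1 being the highest (log2 fold change 1.397, SE 0.13, adjusted p = 3.6e-06).

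B cell markers fell in 9 of 9 tested (median -1.29; with the sex term 7), of which 2 reached the expression limit through the controls only. Cd79a, a chain of the B cell receptor complex, stood at 14.2, 9.72, 8.98 and 12.04 FPKM in the control libraries and 0.725, 0.547 and 0.342 FPKM in the het mutants (log2 fold change -2.98, SE 0.15, adjusted p = 3.6e-08). Ms4a1, a surface antigen of these cells, fell too, with a log2 fold change of -2.35 (SE 0.18). Of T, NK and innate lymphoid markers, 9 of 16 fell and 3 rose (median -0.65; with the sex term 2 rose and 7 fell). Lef1 and Tcf7, transcription factors of T cells that fibroblasts also use, fell, with log2 fold changes of -1.58 (SE 0.10) and -1.18 (SE 0.11), as did the receptor chain Cd3e (log2 fold change -0.93, SE 0.13). Those that rose included Gzmb at 0.93 (SE 0.20) and Areg at 0.55 (SE 0.14). Of the 16 tested, 1 reached the expression limit through the het libraries only, and 2 of the other 15 rose. Dendritic cell and MHC class II genes fell in 5 of 13 and rose in 2 (median -0.53; with the sex term 0 rose and 2 fell, at equal total FPKM 1 rose and 6 fell), and library 3 differed from the others here. The median was -0.22 without het library 2 and -0.34 without control 4, and 1 rose without control 2, 3 or 4 or het library 2. H2-Aa, a class II chain, stood at 167, 175, 166 and 171 FPKM in the control libraries and 82.7, 72.5 and 185 FPKM in the het mutants (log2 fold change -0.71, SE 0.24, adjusted p = 0.024). Library 3 lay above all controls and libraries 1 and 2 below them. The call was lost without het library 1 (log2 fold change -0.55, adjusted p = 0.098) and without het library 2 (-0.45, adjusted p = 0.12). Ciita, the regulator that class II genes need, stood at 1.33, 1.48, 1.48 and 1.29 FPKM in the control libraries and 2.78, 2.86 and 13.03 FPKM in the het mutants (log2 fold change 1.299, SE 0.35, adjusted p = 0.0076). Without library 3, 1 rose and 9 fell in this list, with a median of -0.74. Of its 13 tested genes, 1 that fell reached the expression limit through the controls only, and of the other 12, 2 rose and 4 fell.

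Erythroid genes fell in 9 of 11 (median -1.26; with the sex term 1 rose and 6 fell). Hbb-b1, a β-globin with near-identical copies, stood at 25586, 18775, 16621 and 14588 FPKM in the control libraries and 6046, 6403 and 6695 FPKM in the het mutants (log2 fold change -1.53, SE 0.17, adjusted p = 1.6e-05). Alas2, the erythroid enzyme of haem synthesis, fell (log2 fold change -1.26, SE 0.19). The gene that rose was Gata1, at 0.91 (SE 0.14), a transcription factor shared with megakaryocytes. Gata1 reached the expression limit through the het libraries only. Mast cell, basophil and eosinophil genes fell in 6 of 9 and rose in 2 (median -0.45; with the sex term 1 rose and 6 fell, at equal total FPKM 1 rose and 6 fell; 1 rose without control 3 or 4 or het library 2 or 3), with the mast cell proteases Mcpt4 at -1.81 (SE 0.20) and Cma1 at -0.58 (SE 0.13).

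In every epithelial list most tested genes rose. Type 2 (AT2) cells make surfactant, and 21 of 23 of their genes rose while none fell (median 0.68; with the sex term 18; at equal total FPKM 17 rose and 1 fell). Sftpd, surfactant protein D, stood at 431, 363, 401 and 418 FPKM in the control libraries and 808, 1014 and 958 FPKM in the het mutants (log2 fold change 1.19, SE 0.088, adjusted p = 5.4e-07). Ctsh, the protease that processes surfactant protein B, went from 159 ± 10.2 (SD, n = 4) to 528 ± 32.03 FPKM (SD, n = 3) (log2 fold change 1.72, SE 0.060, adjusted p = 3.2e-09). Sftpc, the most abundant of these transcripts, rose by 0.40 (SE 0.11), less than Sftpd or Sftpa1 at 1.31 (SE 0.077), and the lipid transporter Abca3 rose by 0.96 (SE 0.071). Etv5, which FGF signalling induces in AT2 cells, did not pass, at 49.6 and 47.4 FPKM. Of AT1 genes, from the flat cells of gas exchange, 15 of 20 rose and 3 fell (median 0.49; with the sex term 10 rose and 3 fell). Pdpn, podoplanin, went from 70.9 ± 3.78 (SD, n = 4) to 147 ± 7.32 FPKM (SD, n = 3) (log2 fold change 1.04, SE 0.056, adjusted p = 5.7e-08), Ager rose by 0.52 (SE 0.066) and Hopx by 0.73 (SE 0.080), while Igfbp2, known from mature AT1 cells, fell (log2 fold change -1.67, SE 0.14, adjusted p = 1.9e-06). Aqp5 rose by 0.31 (SE 0.070) and Vegfa, the angiogenic factor of AT1 cells, did not pass, at 259.7 and 262 FPKM.

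Genes of the transitional state between AT2 and AT1 cells rose in 12 of 15 and fell in 3 (median 0.80; with the sex term 11 rose and 2 fell). Of these 15, 1 reached the expression limit through the het libraries only, and 11 of the other 14 rose. Cldn4, a claudin of this state, rose by 1.53 (SE 0.16), whereas the integrin Itgb6 fell (log2 fold change -0.36, SE 0.083). Cdkn1a, the p21 inhibitor of cell division, stood at 36.01, 30.98, 36.4 and 36.7 FPKM in the control libraries and 70.7, 137 and 151 FPKM in the het mutants, where library 1 was the lowest (log2 fold change 1.67, SE 0.20, adjusted p = 2.3e-05). In the airway, 10 of 16 secretory genes rose and none fell, or 1 without control 1 (median 0.89; with the sex term 8). Of these 16, 1 reached the expression limit through the het libraries only, and 9 of the other 15 rose. Scgb1a1, the club cell secretoglobin, stood at 13826, 12934, 13044 and 11948 FPKM in the control libraries and 22144, 22807 and 21699 FPKM in the het mutants (log2 fold change 0.78, SE 0.11, adjusted p = 6.6e-05). Scgb3a1, another secretoglobin, rose by 3.900 (SE 0.87), and Muc5b, Agr2 and Tff2 did not pass. Cilia genes rose in 11 of 13 by smaller amounts (median 0.44; with the sex term 7), Foxj1, their master regulator, by 0.59 (SE 0.13). Of these 13, 1 reached the expression limit through the het libraries only, and 10 of the other 12 rose. The 1 that fell, Tppp3, lost its call without control 3 or het library 1 or 2 (adjusted p = 0.058, 0.088 and 0.063). The summed level of the cilia list overlapped between the groups. It was 427.7 to 513.0 FPKM in the control libraries and 389.6 to 473.6 FPKM in the het mutants. Mesothelial genes rose in 8 of 10 and fell in 1, a call lost without any 1 library other than control 2 (median 0.71; with the sex term 7 rose and 0 fell, at equal total FPKM 7 rose and 2 fell), with Msln, mesothelin, at 1.14 (SE 0.11).

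**Figure D4:**
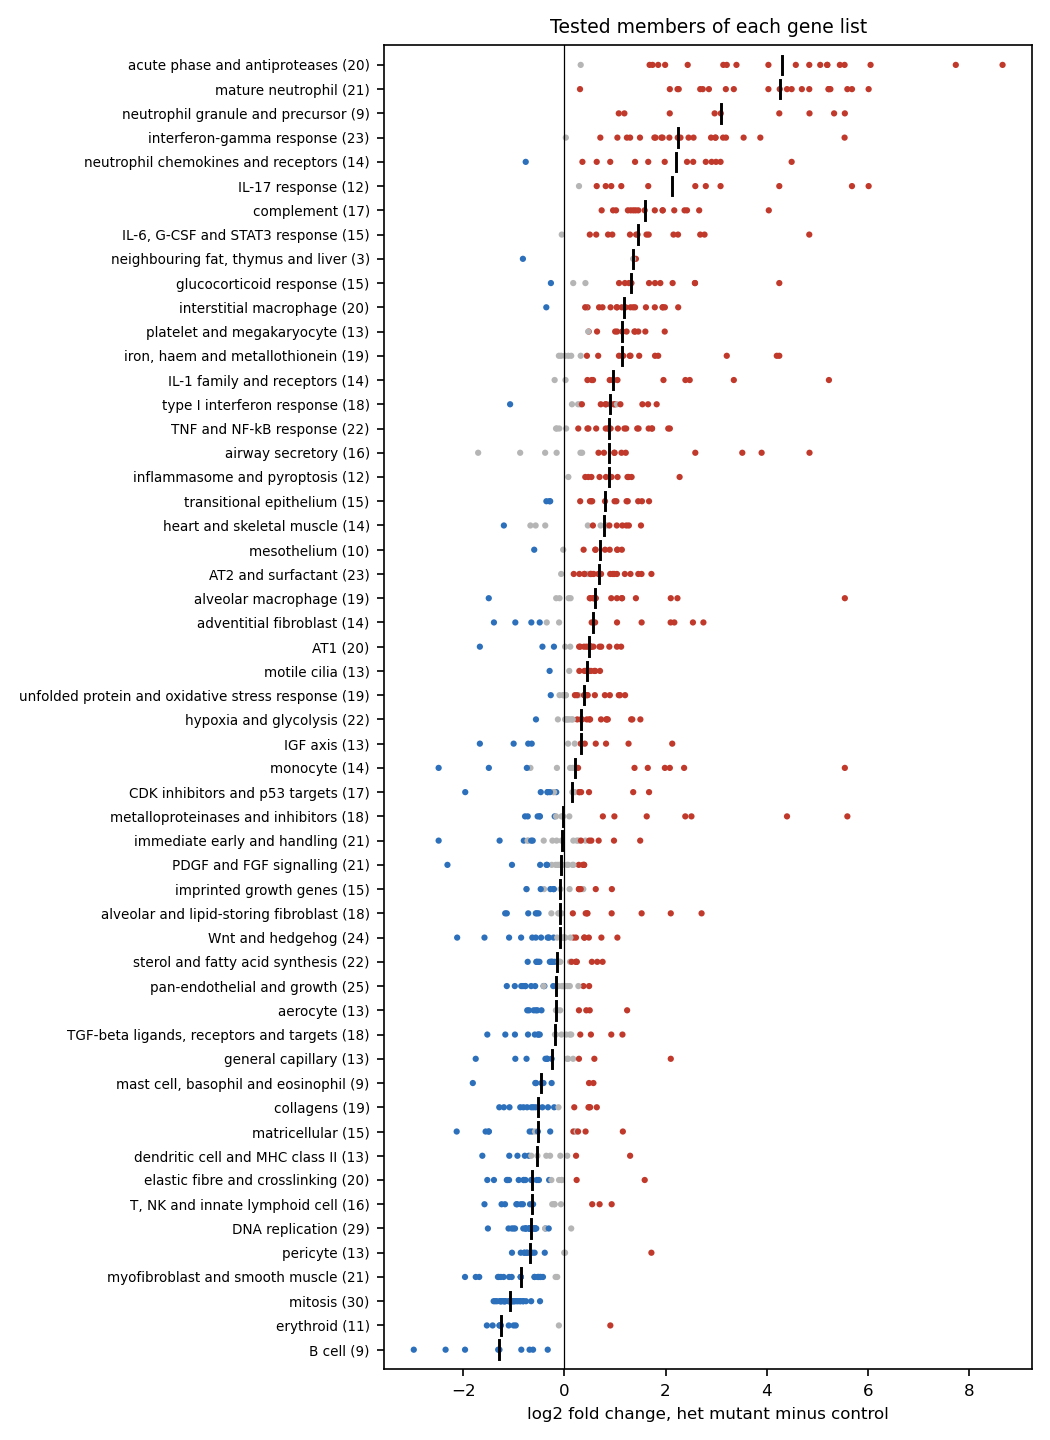
Log2 fold change, het mutant minus control on log2(FPKM + 1), of every tested member of each gene list, with the number tested in brackets; each point is a gene, red where it rose, blue where it fell and grey where it did not pass, and the black bar is the list's median. Medians run from 4.31 for the acute phase list to -1.29 for B cells.

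The contractile mesenchyme moved the opposite way. None of 21 myofibroblast and smooth muscle genes rose and 19 fell (median -0.86; with the sex term 19 fell). Acta2, smooth muscle actin, stood at 281, 281, 291 and 273 FPKM in the control libraries and 88.9, 97.6 and 75.2 FPKM in the het mutants (log2 fold change -1.69, SE 0.086, adjusted p = 3.6e-08). The controls lay within a narrow band and the highest het mutant was far below it. Tagln, an actin-binding protein of the same cells, went from 369 ± 10.1 (SD, n = 4) to 148 ± 11.3 FPKM (SD, n = 3) (log2 fold change -1.32, SE 0.080, adjusted p = 1.4e-07), and the sarcomere-linked Pdlim3 fell (log2 fold change -1.75, SE 0.096). So did the ligand Wnt5a (log2 fold change -1.095, SE 0.12) and Myh11, the myosin of mature smooth muscle (log2 fold change -0.86, SE 0.091). The exceptions, which did not pass, were Pdgfra, the receptor that marks myofibroblast progenitors, at 36.7 to 40.8 FPKM in the control libraries and 31.4 to 36.1 FPKM in the het mutants, and the hedgehog inhibitor Hhip, with group means of 37.01 and 33.7 FPKM. Pericyte genes fell in 10 of 13 and the laminin chain Lamc3, which reached the expression limit through the het libraries only, rose (median -0.69; with the sex term 1 rose and 8 fell), with the PDGF receptor Pdgfrb at -1.04 (SE 0.068) and Cspg4 at -0.86 (SE 0.087). The letters of a CArG box, the site of serum response factor, were in 1 of 14 promoters of the myofibroblast list, against 1.191% of the promoters of tested genes.

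Other fibroblast genes were mixed. In the alveolar and lipid-storing list 8 of 18 rose and 6 fell (median -0.079; with the sex term 6 rose and 4 fell, at equal total FPKM 7 rose and 9 fell). The median was -0.17 without het library 1, where 9 fell, -0.0095 without library 2, -0.045 without library 3 and -0.23 at equal total FPKM. Inmt, a methyltransferase of mature alveolar fibroblasts, stood at 42.5, 30.7, 30.9 and 43.3 FPKM in the control libraries and 209, 218 and 319 FPKM in the het mutants (log2 fold change 2.71, SE 0.18, adjusted p = 2.1e-07). Plin2, which coats lipid droplets, and Lpl, lipoprotein lipase, rose by 0.93 (SE 0.054) and 2.103 (SE 0.13), whereas the integrin Itga8 (log2 fold change -0.72, SE 0.073), Slc7a10 (log2 fold change -1.17, SE 0.13) and Figf, the gene of VEGF-D (log2 fold change -1.14, SE 0.12), fell. Fgf10 did not pass, at 12.5 and 12.005 FPKM. Of adventitial fibroblast genes 8 of 14 rose and 4 fell (median 0.57; with the sex term 7 rose and 4 fell), with Ly6a, Pi16 and the eosinophil chemokine Ccl11 at 2.75 (SE 0.22), 2.17 (SE 0.17) and 2.101 (SE 0.19) against Cd34 at -0.97 (SE 0.072) and Mfap5 at -1.39 (SE 0.14).

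Genes of elastic fibre assembly fell in 14 of 20 and rose in 2 (median -0.65; with the sex term 1 rose and 14 fell; 1 rose without het library 1 or 2). Elastin itself, Eln, stood at 3034, 2369, 2219 and 3287 FPKM in the control libraries and 2673, 2442 and 2672 FPKM in the het mutants, overlapped between the groups and missed the threshold (log2 fold change -0.053, SE 0.14, adjusted p = 0.76). Lox, an enzyme that crosslinks elastin and collagen, stood at 43.4, 43.9, 39.04 and 43.04 FPKM in the control libraries and 121, 131 and 136 FPKM in the het mutants (log2 fold change 1.59, SE 0.084, adjusted p = 5.1e-08). Against it, the related enzymes Loxl1, Loxl2 and Loxl3 fell, with log2 fold changes of -0.51 (SE 0.075), -0.90 (SE 0.062) and -0.66 (SE 0.057). Fbln5, a fibulin that joins elastin to its scaffold, went from 119 ± 7.14 (SD, n = 4) to 54.3 ± 7.03 FPKM (SD, n = 3) (log2 fold change -1.12, SE 0.085, adjusted p = 6.9e-07), and the fibrillin Fbn2 and the microfibril protein Ltbp2 fell, with log2 fold changes of -1.14 (SE 0.089) and -1.53 (SE 0.13). Collagens fell in 13 of 19 and rose in 5 (median -0.52; with the sex term 4 rose and 11 fell). The fibril collagens Col1a1 and Col3a1 fell, with log2 fold changes of -1.29 (SE 0.073) and -0.74 (SE 0.079), as did the vascular basement membrane chain Col4a1 (log2 fold change -0.44, SE 0.10), while Col4a3 and Col4a4, the chains of the AT1 basement membrane, rose by 0.51 (SE 0.055) and 0.48 (SE 0.081). In the matricellular list, which holds matrix proteins that signal to cells, 8 of 15 fell and 4 rose, with Tnc and the proteoglycan Vcan (log2 fold change -1.496, SE 0.11) on one side and osteopontin, Spp1 (log2 fold change 1.16, SE 0.30), on the other. With the sex term 1 rose and 8 fell, at equal total FPKM 1 rose and 9 fell in that list. Without 1 library 1 to 4 of it rose, with 1 without control 3 and 2 without control 2 or 4 or het library 1 or 2. Matrix proteases and inhibitors were split, 7 of 18 higher and 6 lower (with the sex term 7 rose and 5 fell). Those that rose included Mmp8 and Mmp9, which neutrophils carry, at 5.596 (SE 0.22) and 4.403 (SE 0.21), and the inhibitor Timp1 at 2.39 (SE 0.23), and those that fell included the membrane protease Mmp14 at -0.53 (SE 0.057).

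In the TGF-β list 8 of 18 fell and 4 rose (median -0.18; with the sex term 3 rose and 7 fell, at equal total FPKM 3 rose and 11 fell). The 3 TGF-β ligands fell, Tgfb1 (log2 fold change -0.49, SE 0.098), Tgfb2 (log2 fold change -0.98, SE 0.071) and Tgfb3 (log2 fold change -1.17, SE 0.067). Their receptor genes rose, Tgfbr1 by 0.31 (SE 0.074), Tgfbr2 by 0.93 (SE 0.069) and Tgfbr3 by 0.52 (SE 0.061). In the PDGF and FGF list 4 of 21 rose and 5 fell (with the sex term 2 rose and 8 fell, at equal total FPKM 3 rose and 9 fell), with Etv4 and Pdgfrb the largest falls and Pdgfa, Fgf10, Fgf18, Spry2 and Dusp6 among those that did not pass. In the Wnt and hedgehog list 7 of 24 rose and 10 fell (median -0.090; with the sex term 2 rose and 6 fell, at equal total FPKM 5 rose and 12 fell). Its median was -0.20 without het library 1. The Wnt targets Axin2 and Lef1 fell, with log2 fold changes of -0.46 (SE 0.084) and -1.58 (SE 0.10), the epithelial ligand Wnt7a rose by 0.73 (SE 0.081) and Shh did not pass, at 21.5 and 21.6 FPKM. Of the IGF axis 7 of 13 rose and 4 fell (with the sex term 5 rose and 4 fell), with Igf1 at -0.65 (SE 0.12) and the binding proteins Igfbp3 and Igfbp4 at 2.13 (SE 0.22) and -1.01 (SE 0.066).

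Among endothelial genes falls outnumbered rises. Of 25 pan-endothelial and angiogenic genes 11 fell and 2 rose (median -0.17; with the sex term 1 rose and 10 fell, at equal total FPKM 2 rose and 17 fell). Pecam1 and Erg, which mark endothelium as a whole, did not pass, at 267 and 287 FPKM and 26.8 and 26.6 FPKM, whereas the transcription factors Sox7, Sox17 and Sox18 fell, with log2 fold changes of -0.82 (SE 0.11), -0.85 (SE 0.10) and -0.78 (SE 0.15) as did the receptor Tie1 (log2 fold change -0.77, SE 0.061). General capillary genes had 3 of 13 higher, 5 without het library 1, and 7 lower (with the sex term 2 rose and 6 fell). Without any 1 library 5 or 6 fell. The apelin receptor Aplnr stood at 106, 98.5, 95.3 and 116 FPKM in the control libraries and 42.7, 31.5 and 19.96 FPKM in the het mutants (log2 fold change -1.76, SE 0.18, adjusted p = 7.2e-06), with library 3 the lowest. Aerocyte genes, of the large capillary cells facing the airspace, had 4 of 13 higher and 6 lower (with the sex term 3 rose and 5 fell, at equal total FPKM 3 rose and 9 fell), with the surface enzyme Car4 at 0.50 (SE 0.047) against the apelin gene Apln at -0.45 (SE 0.11).

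Genes of cell division fell in the het mutant. All 30 tested mitosis genes fell (median -1.08; with the sex term 28), and 27 of 29 DNA replication genes fell (median -0.66; with the sex term 21). Cdc20, the activator that starts anaphase, stood at 24.3, 23.4, 22.8 and 20.9 FPKM in the control libraries and 11.03, 7.33 and 6.34 FPKM in the het mutants (log2 fold change -1.401, SE 0.15, adjusted p = 1.3e-05). Mki67, the proliferation marker, stood at 8.23, 8.87, 9.56 and 7.48 FPKM in the control libraries and 6.33, 4.37 and 3.01 FPKM in the het mutants (log2 fold change -0.81, SE 0.17, adjusted p = 0.0017). In both genes library 1 was the least reduced het mutant and library 3 the most, and no het mutant reached a control. The summed mitosis list stood at 402, 445, 446 and 416 FPKM in the control libraries and 249.9, 169 and 133 FPKM in the het mutants, in the same order. Rrm2, of ribonucleotide reductase, went from 25.7 ± 2.54 (SD, n = 4) to 8.59 ± 2.84 FPKM (SD, n = 3) (log2 fold change -1.51, SE 0.16, adjusted p = 1.2e-05). The replication genes that did not pass were E2f2 and Rfc4. Of inhibitors of the cycle and p53 targets 6 of 17 rose and 6 fell (with the sex term 5 rose and 4 fell). Cdkn2b, p15, rose by 1.36 (SE 0.12) and Cdkn2c, p18, fell (log2 fold change -1.96, SE 0.15), while among p53 targets Mdm2 rose by 0.29 (SE 0.051) and Bax fell (log2 fold change -0.33, SE 0.050).

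Promoters of 3 mitosis genes are shown for the cell cycle homology region TTTGAA and the inverted CCAAT box ATTGG, both searched on either strand and marked in capitals. They cover the 250 bases before each start (RefSeq, GRCm38.p6), at chr10:69352913-69353162, minus strand for Cdk1, chr4:118437344-118437593, minus strand for Cdc20 and chr11:99024190-99024439, minus strand for Top2a.
Cdk1: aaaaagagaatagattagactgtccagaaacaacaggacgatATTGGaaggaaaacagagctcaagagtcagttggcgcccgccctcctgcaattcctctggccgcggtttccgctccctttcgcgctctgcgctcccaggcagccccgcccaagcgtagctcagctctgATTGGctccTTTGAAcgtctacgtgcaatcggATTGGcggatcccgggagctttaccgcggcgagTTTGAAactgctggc
Cdc20: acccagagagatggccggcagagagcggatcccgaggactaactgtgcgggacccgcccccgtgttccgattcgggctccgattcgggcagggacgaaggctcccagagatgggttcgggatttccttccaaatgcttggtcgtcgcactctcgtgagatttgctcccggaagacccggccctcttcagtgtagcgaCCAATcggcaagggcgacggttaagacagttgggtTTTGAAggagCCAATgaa
Top2a: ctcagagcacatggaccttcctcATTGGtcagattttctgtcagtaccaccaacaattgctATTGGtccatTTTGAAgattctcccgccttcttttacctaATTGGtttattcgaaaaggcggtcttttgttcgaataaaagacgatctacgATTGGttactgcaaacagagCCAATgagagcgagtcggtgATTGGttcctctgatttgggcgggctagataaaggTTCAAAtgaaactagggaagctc
A match to TTTGAA begins 15 and 71 bases before the start in Cdk1, 18 in Cdc20 and 23 and 179 in Top2a. CCAAT boxes on either strand begin 48, 80 and 208 bases before it in Cdk1 and 8 and 53 in Cdc20. In Top2a they begin at 58, 78, 98, 149, 189 and 227 bases. Both motifs were in 9 of 25 promoters of the mitosis list, against 3.947% of the promoters of tested genes. They were in 3 of 22 of the replication list. The inverted CCAAT box was in 21 of 25 mitosis promoters, in 15 of 22 replication promoters and in 35.84% of those of tested genes. TTTGAA was in 9 of 25 of them, in 3 of 22 replication promoters and in 10.41% of those of tested genes. These 3 genes were chosen for holding both, and Cdk1 (log2 fold change -1.26, SE 0.16) and Top2a (log2 fold change -1.25, SE 0.18) fell like Cdc20.

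Metabolic and stress programmes were read last. Iron, haem and metallothionein genes rose in 13 of 19 and none fell (median 1.14; with the sex term 13, at equal total FPKM 13 rose and 2 fell), with Steap4, a metal reductase, at 4.201 (SE 0.23) and the ferritin chain Fth1 at 1.14 (SE 0.093). Of these 19, 2 reached the expression limit through the het libraries only, and 12 of the other 17 rose. Glucocorticoid response genes rose in 12 of 15 (median 1.32), but in 6 with the sex term. Through the het libraries only 2 of the 15 reached the expression limit, and 10 of the other 13 rose. Fkbp5, a chaperone that glucocorticoids induce, stood at 6.11, 5.57, 5.79 and 4.98 FPKM in the control libraries and 11.5, 41.97 and 44.7 FPKM in the het mutants (log2 fold change 2.14, SE 0.34, adjusted p = 2.1e-04). Library 1 lay far below the other het mutants and still above the controls. The receptor gene Nr3c1 fell (log2 fold change -0.27, SE 0.058). Of hypoxia and glycolysis genes 13 of 22 rose and 1 fell (median 0.34; with the sex term 11 rose and 1 fell). Slc2a1, the glucose transporter, went from 8.83 ± 0.426 (SD, n = 4) to 23.5 ± 1.49 FPKM (SD, n = 3) (log2 fold change 1.32, SE 0.066, adjusted p = 3.2e-08), and the hexokinase Hk2 rose by 1.34 (SE 0.16), while Adm, Ankrd37 and Vegfa, which hypoxia also induces, did not pass and Egln3 fell (log2 fold change -0.56, SE 0.090). In the sterol and fatty acid list 7 of 22 rose and 10 fell (with the sex term 2 rose and 8 fell, at equal total FPKM 3 rose and 14 fell). The fatty acid enzymes Fasn and Scd1 rose by 0.65 (SE 0.099) and 0.75 (SE 0.18), and the sterol enzymes Dhcr7 and Cyp51 fell, with log2 fold changes of -0.73 (SE 0.084) and -0.52 (SE 0.076). Of unfolded protein and oxidative stress genes 12 of 19 rose and 1 fell (with the sex term 11 rose and 0 fell, at equal total FPKM 9 rose and 4 fell), with Herpud1 at 1.199 (SE 0.14) and Srxn1 at 1.099 (SE 0.087), and Atf4, Ddit3 and Hspa5 did not pass. The 1 that fell, Pdia4, lost its call without control 1, 2 or 3 or het library 3. Imprinted growth genes were split, 5 higher and 5 lower of 15 (with the sex term 3 rose and 3 fell, at equal total FPKM 3 rose and 6 fell), and 3 lower without het library 3.

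Genes of sample handling and of neighbouring tissue were read beside these. Immediate early genes were mixed, 6 higher and 5 lower of 21 (with the sex term 3 rose and 5 fell, at equal total FPKM 5 rose and 10 fell), with Fos at 0.98 (SE 0.25) and Junb at 1.498 (SE 0.13) against Nr4a1 at -2.49 (SE 0.41). Of these 21, 1 that fell reached the expression limit through the controls only. Of the other 20, 6 rose and 4 fell, with a median of 0.059 in place of -0.057. Heart and skeletal muscle genes rose in 7 of 14 and fell in 1, and with the sex term 1 rose and 1 fell. Their summed level was 319, 355, 659 and 150.1 FPKM in the control libraries and 522, 633 and 529 FPKM in the het mutants, so the groups overlapped. Their median was 0.78, and 0.48 without control 4, the library with the least of them. Their part in other results was not tested. Of 15 markers of fat, thymus and liver 12 did not reach the expression limit.

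The null mutant libraries of the same table were read beside the het mutants without a comparison of the changes, since both are set against the same controls. In null against control 256 genes rose (1.87%) and 14 fell (0.102%). Saa3 stood at 150.3, 238, 191 and 328 FPKM in the null mutants, between the groups above, and S100a8 at 944, 963, 942 and 714 FPKM. Acta2 stood at 255, 287, 308 and 307 FPKM and Cdc20 at 22.6, 30.5, 21.1 and 22.6 FPKM, where they overlapped with the controls. Nlrp3 stood at 3.59, 3.04, 3.996 and 3.58 FPKM, and Gbp5 at 2.76, 1.67, 2.19 and 1.51 FPKM.

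The first experiment of the series compared 3 lungs with LysM-cre and Nlrp3 A350V, no Il18r1 allele named, with 3 controls in separate samples. Its table was normalized separately, so only changes within each table are set side by side, and it shares the tie of genotype and sex, with Xist at 0.0426, 0.0121 and 0.0236 FPKM in its controls and 40.3, 38.6 and 37.7 FPKM in its mutants. There 3788 of 13549 genes rose (28%) and 3740 fell (27.6%). Of 13443 genes tested in both, 2758 rose in both, which is 74.8% of the rises in the het mutant and 73.6% of those in the first experiment. Likewise 2818 fell in both (72.5% and 75.5%), and 21 and 27 passed in opposite directions. Across those genes, which are not independent replicates, the log2 fold changes correlated with r = 0.872, and both experiments share the tie to sex.

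In the first experiment the counts of the interferon-γ list were 3 higher and 3 lower of 22, median 0.10, beside a median of 2.24 in the het mutant and 1.76 without het library 3. For Gbp5 the first experiment gave 1.09, 3.86 and 2.801 FPKM in the control libraries and 5.47, 2.33 and 3.85 FPKM in the mutants, which overlapped, and a log2 fold change of 0.48 (SE 0.33, adjusted p = 0.26). For Irf1 it gave 34.5, 48.6 and 46.2 and 70.3, 44.2 and 59.5 FPKM and a log2 fold change of 0.41 (SE 0.18, adjusted p = 0.086). Il18bp stood at 2.84, 2.03 and 2.24 FPKM in those controls and 5.08, 3.41 and 4.29 FPKM in those mutants, and the log2 fold change was 0.64 (SE 0.14, adjusted p = 0.0059). The type I interferon list had 2 higher and 3 lower of 18, median -0.20. The difference between experiments was not tested, since the tables were normalized separately. H2-Aa stood at 106, 115 and 103 FPKM in the first controls and 32.7, 19.6 and 27.6 FPKM in the first mutants, and the log2 fold change was -2.004 (SE 0.16, adjusted p = 4.6e-05). There all 3 mutants lay below the controls. In the mitosis list the first experiment had 0 higher and 30 lower of 30, median -1.94, beside -1.08 in the het mutant, and in the platelet list 13 higher and 0 lower of 13, median 1.83, beside 1.15. For mature neutrophil genes the medians were 3.41 and 4.26 and for myofibroblast and smooth muscle genes -0.98 and -0.86.

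**Figure D5:**
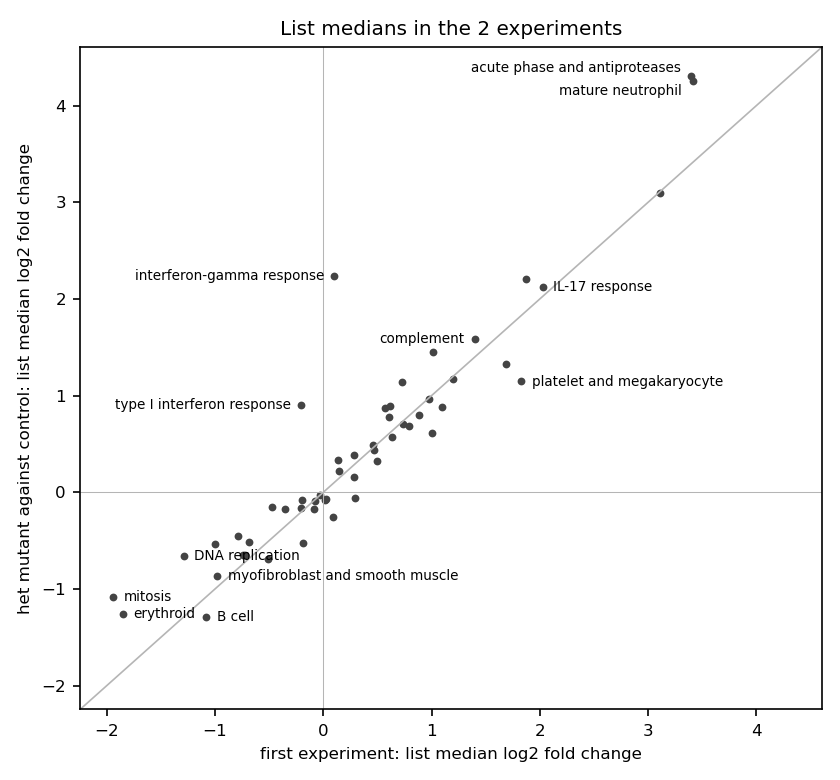
Median log2 fold change of each gene list in the het mutant (vertical) against that in the first experiment (horizontal), on log2(FPKM + 1), with the line of equal values; each point is a list. The interferon-γ list lies at 0.10 on the horizontal and 2.24 on the vertical axis, and the mitosis list at -1.94 and -1.08.

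The authors' deposited table of the same comparison, which lists a log2 fold change, its standard error and an adjusted p per gene, gave 4245 of 18063 genes higher (23.5%) and 4107 lower (22.7%) in the het mutant at its adjusted p under 0.05. Of 13648 genes in both, 3503 rises and 3601 falls were called by both, and none were called in opposite directions. In the authors' deposited table the gene Saa3 had a log2 fold change of 8.76, Il18r1 of 1.07 and Tnf of 1.01, the last with an adjusted p of 0.0049. Lyz2 did not pass there either, with an adjusted p of 0.23.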

How the data were processed

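Lung RNA was read as bulk RNA-seq, with mechanical homogenization, column purification, a stranded mRNA kit and paired-end sequencing per the labels' protocols. The authors deposited an FPKM table of all 11 libraries of this experiment and another of the first experiment. The unit was inferred from the values, since the file headers name none. Reads were aligned with STAR to GRCm38 (mm10) per the submitters' processing notes, and the quantifier, the annotation and how shared reads were treated are not given in the sources used here. Also deposited by the authors were log2 fold changes, their standard errors and p-values of the same comparison, per the file headers, of which 3 summary lines with 18.5% of the mean count were left out. Names turned into dates removed 27 of the 24354 lines of each FPKM file.

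FPKM was taken to log2(FPKM + 1), so fold changes of low genes are understated. Genes that reached 1 FPKM in 3 or more libraries were fitted with limma 3.58.1 (R 4.3.3, with an intensity trend) over all 11 libraries by group, and p-values were adjusted over all 13724 tested genes by Benjamini-Hochberg at 0.05. Tables and figures used Python 3.11.15, pandas 2.3.3, numpy 2.4.6 and matplotlib 3.10.9. The code was tested on simulated data. Read depth is not in the files. Relative depth was taken from the ratio, within a window of 2%, most common among values under 0.3 FPKM, an estimate revised once after seeing the data. Control 3 had 7.01% of values at its ratio against 6.19% at the next best.

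Samples were grouped by their labels. The sex term marks libraries with Xist at 1 FPKM or more. Promoters and coordinates came from RefSeq, GRCm38.p6, and GENCODE, GRCm38, matched by symbol. Of 10388 promoters compared, 87.35% had a short stretch just after the start that lay in the first part of a GENCODE transcript of the gene. The reverse complement of that stretch was found there in 0. This checked the strand and not the exact start. Motifs were searched in 7 kinds over 8 lists.

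The members and lists were chosen with earlier results of these data known. The genes named were Nlrp3, Il18r1, Il18, Il1b, Tnf and Lyz2, the 15 largest rises and falls among genes that passed, did not overlap and had a higher mean of at least 5 FPKM, with sex-linked genes, predicted or clone names and segments of antibody or T cell receptor loci left out, and up to 4 members of each list with the smallest p. Just inside and outside were Retnlg (5.26) and Il1r2 (5.23) among rises and Egfem1 (-2.003) and Nkain1 (-1.98) among falls. All other genes were named after their values were seen. No resampling or gene set test was run.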

Additional observations from a re-analysis of the deposited data

Results flagged for a closer look

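Among 224 named genes, 12 had 1 control library apart from the other 3, a gap that chance gives in about 1 of 20 groups, and no gene moved in opposite ways in the compared groups. The control that lay apart was library 4 for Chil3 (22.6 FPKM, next 6.30), BC100530 (35.7, next 52.6), Mrc1 (11.0, next 9.42), Plaur (32.5, next 23.99) and Cyp4b1 (45.8, next 51.6). It was library 3 for Serpina3m (0.0463, the others listed at 0), Gpm6a (13.4, next 11.7) and Ttr (10.0, next 0.198). It was library 2 for Il1r2 (0.422, next 0.130) and Cdkn1a (30.98, next 36.01), and library 1 for Mmp9 (3.04, next 1.98) and Bub1b (8.71, next 9.88). In 11 of these 12 genes the het mutants lay outside the range of all 4 controls, Ttr being the exception.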

How the results depend on the processing

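With every library at equal total FPKM 2484 genes were higher and 6482 lower, and 27.7% of calls were higher in place of 48.6%. With the sex term 2436 were higher and 2447 lower, and requiring a log2 fold change of at least 1 left 741 and 326. Under the other alternatives both counts stayed within 1.5 times, at 3788 and 3902 with median-of-ratios rescaling, 3741 and 3975 with a pseudocount of 0.1, 4231 and 4107 with no filter, 2699 and 3034 at a mean of at least 5 FPKM, 3594 and 3744 with the 7 libraries alone and 3638 and 3844 with robust array weights. Leaving out 1 library gave 3266 to 3629 higher and 3515 to 4011 lower. With replicate number as a block 3563 were higher and 3715 lower; the numbers did not pair the samples (correlations of deviations 0.0148, 0.00485 and 0.0442), and each het library correlated best with a control of another number (2, 4 and 1). Of 224 named genes, 214 kept their call and direction with the sex term, 8 no longer passed and 2 reversed. These were Ttr (-3.25 with the term) and Kdm5d, Y-linked (0.023), for which the cause was not tested. Ttr was 1.36 in the report's fit, which it did not pass, and ranged from -0.20 without het library 2 to 2.37 without het library 3. Of 110 list counts 26 moved by over 1.5 times with the sex term and 18 at equal total FPKM. Relative depth was lowest in het library 3, and FPKM carry no counts from which intervals could be set.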
